A study of Mus musculus with 11 samples.

Results

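Of the 9836 H3K4me3 peaks called in wild-type (WT) day 2 embryoid bodies on chromosomes 1 to 19, X and Y, 676 (6.87%, 95% Wilson interval 6.39 to 7.39) overlapped no protein-coding gene and lay more than 1000 bases from every end of one. They were chosen by position alone, against the spans of 21887 protein-coding genes of RefSeq GRCm38.p6, the assembly of mm10, and are called outside peaks here. Of the other WT peaks, 7568 overlapped or flanked the end of a protein-coding gene within 1000 bases and 1592 lay inside such genes. The distance rule drew no sharp line in the values. The 22 outside peaks that were 1000 to 1500 bases from a gene had a median fold enrichment of 3.47 in WT, and 1 was called in KO and 5 in DKO. The 81 peaks that were 500 to 1000 bases away had a median of 3.76 in WT, and 0 were called in KO and 24 in DKO.

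The peaks came from CUT&RUN, in which an antibody bound to chromatin directs a nuclease that releases the DNA around it for sequencing. Mouse embryonic stem cells with a GFP knock-in at Rx, an eye field gene, were differentiated as SFEBq aggregates in GMEM with 5% KSR. Doxycycline was taken away at day 0 and 2% matrigel was given at day 1. Each reaction took 2 µg of antibody. The groups were Wdr5 knockout (KO) with 1 H3K4me3 list, Wdr5 and p53 double knockout (DKO) with 1 H3K4me3 list and 2 lists each for WDR5 and P53, and WT with the same set of lists as DKO. All of them share the Rx:GFP line, the medium and the doxycycline withdrawal. What doxycycline controlled, which parts of the genes were deleted and how many clones were used is not given in the sources used here.

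H3K4me3 is the trimethyl form of lysine 4 on histone H3. It marks active and poised promoters and is laid down by the MLL and SET1 methyltransferase complexes, in which WDR5 is a scaffold subunit. Promoters of long noncoding RNA (lncRNA) genes, including host genes whose introns release small nucleolar RNAs (snoRNAs), are transcribed by RNA polymerase II and carry the mark as protein-coding promoters do. Transfer RNA (tRNA) genes are transcribed by RNA polymerase III from promoter elements inside the gene, and in mammalian cells active ones are known to sit beside nucleosomes with H3K4me3. P53 is a transcription factor that responds to stress.

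Start windows of noncoding genes with a peak in both mutants are given first. They are the RefSeq windows (GRCm38.p6), from 250 bases before to 50 bases after the start, of 4 lncRNA genes whose outside peak was called in KO, DKO and WT alike. Each is read 5′ to 3′ on the gene's strand, and capitals mark GGGCGG, the core of the GC box, and CCAAT, the CCAAT box, on either strand. 1110038B12Rik overlaps Snord52, Snhg3 hosts Snora73a and Snora73b, Chaserr lies upstream of Chd2 and represses it in mouse, and Platr10 is a pluripotency-associated transcript. The 4 were chosen after their values were seen.
1110038B12Rik (chr17:34952422-34952721, minus strand): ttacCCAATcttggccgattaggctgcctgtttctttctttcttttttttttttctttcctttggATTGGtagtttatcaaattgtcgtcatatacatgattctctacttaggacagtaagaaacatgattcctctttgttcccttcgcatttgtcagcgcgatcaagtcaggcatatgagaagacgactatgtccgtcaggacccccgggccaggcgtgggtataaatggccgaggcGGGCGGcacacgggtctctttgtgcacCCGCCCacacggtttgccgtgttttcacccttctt
Snhg3 (chr4:132353637-132353936, minus strand): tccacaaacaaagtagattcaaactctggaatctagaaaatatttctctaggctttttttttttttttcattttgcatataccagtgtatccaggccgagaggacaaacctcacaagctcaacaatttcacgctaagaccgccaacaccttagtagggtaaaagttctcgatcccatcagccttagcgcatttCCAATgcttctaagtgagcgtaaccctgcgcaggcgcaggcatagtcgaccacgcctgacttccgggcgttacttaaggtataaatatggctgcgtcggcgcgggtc
Chaserr (chr7:73558346-73558645, minus strand): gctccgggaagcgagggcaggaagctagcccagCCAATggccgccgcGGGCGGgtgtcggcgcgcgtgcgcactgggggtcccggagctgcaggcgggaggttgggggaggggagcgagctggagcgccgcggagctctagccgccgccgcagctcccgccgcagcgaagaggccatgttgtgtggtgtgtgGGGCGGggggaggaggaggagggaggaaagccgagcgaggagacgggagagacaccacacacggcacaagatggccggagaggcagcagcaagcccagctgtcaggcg
Platr10 (chr3:75655682-75655981, minus strand): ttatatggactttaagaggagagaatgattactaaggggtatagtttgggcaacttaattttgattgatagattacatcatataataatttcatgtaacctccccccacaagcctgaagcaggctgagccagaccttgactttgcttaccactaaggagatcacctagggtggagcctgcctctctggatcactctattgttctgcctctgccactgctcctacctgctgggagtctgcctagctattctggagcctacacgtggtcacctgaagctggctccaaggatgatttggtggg
The windows of 1110038B12Rik, Snhg3 and Chaserr had observed over expected CpG ratios of 0.943, 1.02 and 0.826, and that of Platr10 had 0.0604. No GGGCGG or CCAAT lay in the Platr10 window. The WT peak covered the whole window of 1110038B12Rik and only the downstream edge of that of Platr10. At Snhg3 and Chaserr it lay downstream of the window, so these windows show the start and not the marked stretch.

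For the microRNA genes described here by value that have an entry, 1 mature arm each is shown, since the product is what identifies them, also from RefSeq, with the seed (bases 2 to 8) in capitals.
mmu-miR-713: uGCACUGAaggcacacagc
mmu-miR-210-3p: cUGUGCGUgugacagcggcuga
mmu-miR-101c: aCAGUACUgugauaacuga
mmu-miR-760-3p: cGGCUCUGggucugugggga
mmu-let-7i-5p: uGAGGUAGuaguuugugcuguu
mmu-miR-212-3p: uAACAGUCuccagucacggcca
mmu-miR-132-3p: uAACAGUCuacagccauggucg
The seed AACAGUC was shared by miR-212-3p and miR-132-3p, which are made from neighbouring genes. tRNA genes, the largest group of small RNA genes here, and the peaks themselves are given by name and position.

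The deposited lists set the precision. The H3K4me3 libraries held 22.3 M fragments and 918 peaks in KO, 43.2 M and 6418 in DKO, and 34.2 M and 9836 in WT, so KO was both the shallowest and the shortest list. The WDR5 and P53 libraries held 23.9 M to 57.5 M fragments. In DKO WDR5, WT WDR5 and WT P53, 75.3%, 77.3% and 80.3% of list 2 summits coincided with a list 1 summit to the base, so those pairs were not read as replicates. In DKO P53 the share was 10.6%. With 1 H3K4me3 library per genotype, no difference between genotypes has a replicate check, and no test between them was made. Intervals cover counting error only. Of 11 pluripotency and epiblast genes, 5 had an H3K4me3 peak at an end in KO, 9 in DKO and 9 in WT, while of 9 anterior neural genes 1 had one in KO, 1 in DKO and 3 in WT. Of 7 mesoderm and endoderm genes it was 0 in KO, 0 in DKO and 1 in WT, and of 5 feeder fibroblast genes 0 in KO, 0 in DKO and 1 in WT. Wdr5 itself kept an H3K4me3 peak, with fold enrichments of 4.66 in KO, 6.85 in DKO and 8.07 in WT, and Trp53 had 4.04 in KO, 3.36 in DKO and 3.92 in WT, which does not check the deletions.

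Outside peaks were narrow and of modest height. Their median width was 378.5 bases, against 520 for all WT peaks, and their median fold enrichment was 4.08 (range 1.77 to 29.9), against 4.42. Fold enrichment is the authors' deposited ratio of fragments at the summit to background around it in that library, and it is not scaled between libraries. The median distance to a protein-coding gene was 18201 bases, with 124 outside peaks within 5000 bases and 94 over 100000 bases away. Chromosome 13 held 87 of them, 21.4% of its 407 WT peaks, and chromosome Y held 10 of its 11.

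A noncoding gene or pseudogene lay within 1000 bases of 359 outside peaks (53.1%, 49.3 to 56.8), against 19.7% of all WT peaks. In these counts a peak may have several neighbours. lncRNA genes were near 225 outside peaks, tRNA genes near 114, pseudogenes near 35, snoRNA genes near 13, transcribed pseudogenes near 11 and microRNA genes near 10. The tRNA share was 16.9% of outside peaks, against 1.63% of all WT peaks. Each peak was also put in 1 class, the first that applied in the order given next, with miscellaneous RNA genes counted as lncRNA genes. By this rule 114 lay at tRNA genes, 29 at other small RNA genes, 177 at lncRNA genes and 39 at pseudogenes or other loci. The other 317 had no annotated gene within 1000 bases. The lncRNA class thus leaves out peaks that also lay near a tRNA or other small RNA gene.

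In KO, 119 of the 676 outside peaks were overlapped by an H3K4me3 peak (17.6%, 14.9 to 20.7), against 8.08% of all WT peaks. In DKO it was 279 (41.3%, 37.6 to 45.0), against 49.2% of all WT peaks. The outside share thus stood above the list's share in KO and below it in DKO. The KO share rested on the distance rule: with peaks outside genes at any distance it was 9.38% of 1332. A total of 361 (53.4%) were called in neither mutant and 83 in both. Among these 83 the median fold enrichment was 5.07 in KO, 5.29 in DKO and 5.37 in WT.

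Part of the KO calls fell at places that were also called with the WDR5 and P53 antibodies in DKO. In DKO cells, labelled as knockouts of both Wdr5 and p53, 66 outside peaks (9.76%, against 1.97% of all WT peaks) overlapped a peak of a DKO WDR5 or DKO P53 list. Of these 66, 50 were called in KO and 54 in DKO. Without them, 69 of 610 outside peaks were called in KO (11.3%, 9.04 to 14.1) and 225 in DKO (36.9%, 33.1 to 40.8). The same step left out 194 of the 9836 WT peaks. Over the whole list, those called in KO went from 795 to 707 (7.33% of 9642). Those called in DKO went from 4837 to 4683 (48.6%). Being called in the mutants more often at such places was thus not particular to outside peaks.

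**Figure D1:**
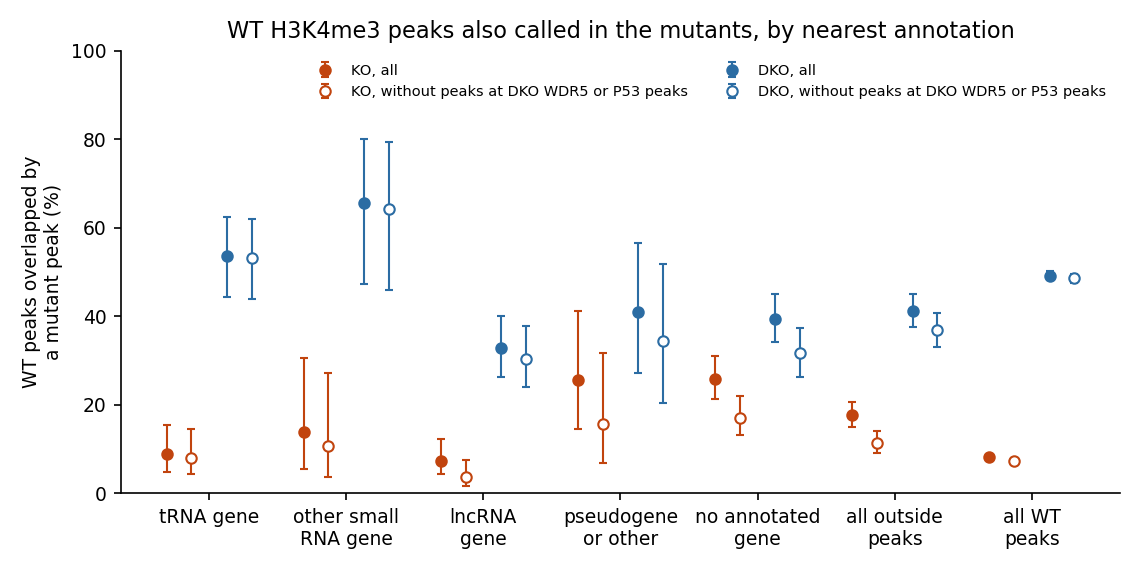
Percent of WT H3K4me3 peaks (vertical axis) that a KO or DKO H3K4me3 peak overlapped, by annotation class, for all outside peaks and for all 9836 WT peaks, with 95% Wilson intervals as bars (1 library per genotype). Open points leave out peaks at DKO WDR5 or P53 peaks. The DKO points of tRNA and other small RNA genes lie at 53.5% and 65.5%, above the 32.8% of the lncRNA class. That class leaves out peaks also near a tRNA or other small RNA gene. The highest KO point among filled ones is that of peaks with no annotated gene, at 25.9%, next to 25.6% for pseudogenes.

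tRNA genes were the group of small RNA genes with the most outside peaks, and the marks lay beside the genes rather than over them. The RefSeq table held 403 named nuclear tRNA genes, of which 327 lay outside protein-coding genes by the same rule. Of these 327, 19 had an H3K4me3 peak within 1000 bases in KO (5.81%), 111 in DKO (33.9%) and 157 in WT (48.0%). Of the 157 marked in WT, 19 were marked in KO (12.1%, 7.89 to 18.1) and 109 in DKO (69.4%, 61.8 to 76.1). These gene counts take any mutant peak within 1000 bases, which need not overlap the WT peak. The same peak can serve several genes. Counted by overlap, 10 of the 114 outside peaks at tRNA genes were called in KO (8.77%) and 61 in DKO (53.5%). Of all WT peaks, also counted by overlap, it was 8.08% in KO and 49.2% in DKO. A WT peak overlapped 24 of the 157 and lay beside 133, with a median gap of 109 bases from a gene with a median length of 73 bases. For 26 of them WT peaks lay on both sides. These are outside genes only: the 76 tRNA genes in or near protein-coding genes had peaks at 3 in KO, 32 in DKO and 43 in WT.

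All 20 amino acids and 43 of the 48 anticodons of the outside tRNA genes had a marked gene in WT. Isoleucine tRNA genes had a peak at 1 of 11 in KO, 4 in DKO and 9 in WT. Leucine tRNA genes had one at 0 of 20 in KO, 10 in DKO and 16 in WT. Proline tRNA genes had nearly as many in DKO as in WT, with 2 of 14 in KO, 10 in DKO and 11 in WT. They were not alone in this. Threonine tRNA genes had 1 of 16 in KO, 10 in DKO and 11 in WT. Phenylalanine tRNA genes had 2 of 6 in KO, 4 in DKO and 4 in WT, and histidine tRNA genes 1 of 9, 4 and 4. Cysteine tRNA genes, the most numerous, were nearly unmarked, with 0 of 54 in KO, 1 in DKO and 2 in WT. Tyrosine tRNA genes had 0 of 9 in KO, 1 in DKO and 1 in WT.

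**Figure D2:**
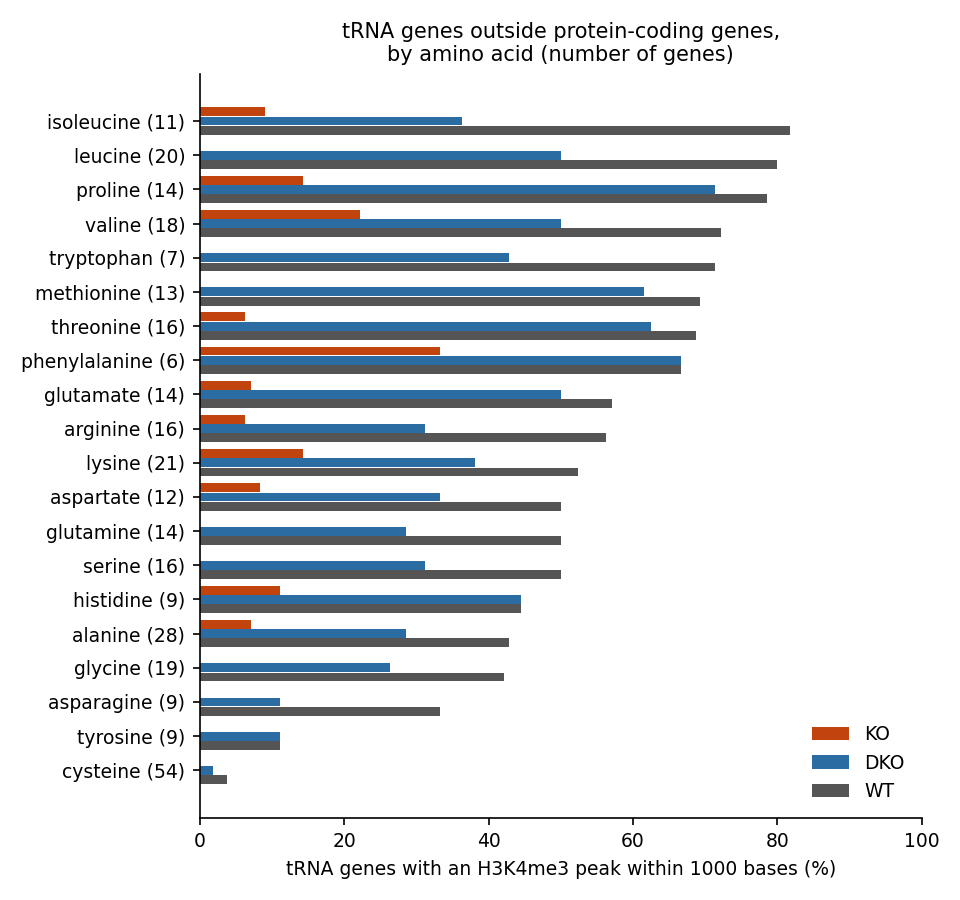
Percent of tRNA genes outside protein-coding genes with an H3K4me3 peak within 1000 bases (horizontal axis), by amino acid, in KO, DKO and WT (bars, 1 library each; the number of genes is in brackets). WT bars run from 3.70% for cysteine to 81.8% for isoleucine, and no DKO bar is longer than its WT bar.

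Of the 114 outside peaks at tRNA genes, 10 were called in KO (8.77%, 4.83 to 15.4) and 61 in DKO (53.5%, 44.4 to 62.4), close to the 8.08% in KO and 49.2% in DKO of all WT peaks. Only 1 of the 114 overlapped a DKO WDR5 or P53 peak. The peak at n-TVaac2 and n-TAagc12, a valine and an alanine tRNA gene (chr13:23401133-23402759), had fold enrichments of 3.98 in KO, 5.24 in DKO and 8.03 in WT. The peak at n-TIaat10 and n-TFgaa1, for isoleucine and phenylalanine (chr13:21882134-21883183), had 5.07 in KO, 4.92 in DKO and 7.89 in WT. Both stood lower in the 2 mutants than in WT. At n-TEttc6, a glutamate tRNA gene (chr14:76151983-76152597), the peak had 4.48 in DKO and 7.72 in WT, with none in KO. The peak at n-TCgca52, a cysteine tRNA gene beside Trmt61b (chr17:71598124-71599134), had 7.29 in WT and none in KO or DKO. At n-TKctt29, a lysine tRNA gene (chr19:12005587-12006700), the order was different, with 4.79 in KO, 6.34 in DKO and 4.98 in WT. Where a tRNA peak was called in the mutant, fold enrichment was higher than in WT in 1 of 10 in KO and 10 of 61 in DKO. For all WT peaks it was 230 of 795 in KO and 1012 of 4837 in DKO, larger shares in both.

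The tRNA peaks were grouped along chromosomes. Chained at 100 kb, the 114 formed 42 groups, and 8 groups of 3 or more held 71 of them. The largest spanned 249 kb of chromosome 13 (chr13:23270651-23519537) with 20 peaks, of which 3 were called in KO and 9 in DKO. The second spanned 167 kb (chr13:21855652-22022357) with 17 peaks, 1 called in KO and 8 in DKO, and the third spanned 169 kb (chr13:21159052-21327747) with 15, of which 2 were called in KO and 7 in DKO. In the first group, peaks with a WT fold enrichment of 7.85 and 8.03 were called in all 3 genotypes, while one with 6.35 was called only in WT. The second group likewise held a peak of 6.19 in WT that was called in neither mutant.

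**Figure D3:**
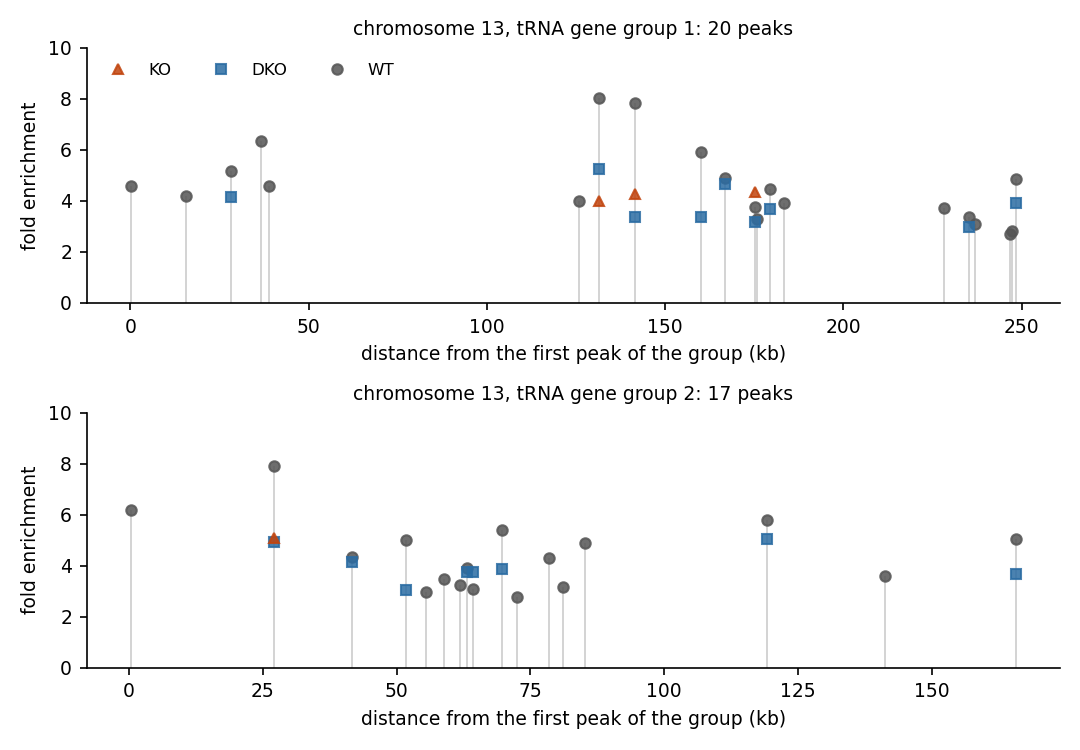
Fold enrichment (vertical axis, authors' ratio to local background) of the outside peaks in the 2 largest tRNA gene groups of chromosome 13, in KO (triangles), DKO (squares) and WT (circles), against the distance in kb from the first peak. A missing mutant symbol means no overlapping peak; 4 of the 37 peaks have a KO symbol and 17 a DKO symbol.

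lncRNA start sites made up the next group. Of 5960 lncRNA genes with a start outside protein-coding genes, 126 had a WT H3K4me3 peak within 1000 bases of it (2.11%). Counted separately, with starts at any position, 125 lncRNA genes had a start within 1000 bases of an outside peak. They were reached by 113 outside peaks. The summits lay at a median of 237.5 bases downstream of the start. Of the 125 genes, 6 had the peak called in KO (4.80%, 2.22 to 10.1) and 48 in DKO (38.4%, 30.3 to 47.2), against 8.08% in KO and 49.2% in DKO of all WT peaks. Without those near tRNA genes or at DKO WDR5 or P53 peaks, it was 5 of 105 in KO and 38 in DKO. The 6 in KO were Gm35239, Chaserr, 1110038B12Rik, Snhg3, Platr10 and Gm46404, the last beside tRNA genes.

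The start windows of these genes were richer in CpG than other lncRNA starts, as a description with no test. Over 138 windows at outside peaks, the median CpG ratio was 0.610 and the median GC content 54.7%, against 0.206 and 46.8% over 7120 windows of lncRNA starts outside protein-coding genes without a WT peak. In 21263 windows of protein-coding starts they were 0.567 and 56.3%. GGGCGG, searched on both strands (reverse complement CCGCCC), was in 45.7% of the windows at outside peaks, 8.48% of those without a peak and 46.2% of protein-coding windows. CCAAT (reverse ATTGG) was in 44.2% at outside peaks, 37.7% without a peak and 38.2% of protein-coding windows, and TATAAA (reverse TTTATA) in 13.8%, 17.7% and 12.6% of the same 3 sets. CCGGAAG (reverse CTTCCGG), a letter string that ETS factors bind, was in 14.5% at outside peaks, 2.61% without a peak and 11.6% of protein-coding windows. CACGTG, which reads the same on both strands, was in 10.9% at outside peaks, 5.55% without a peak and 7.84% of protein-coding windows. GCATGC, also its own reverse complement, was in 5.07%, 7.02% and 8.19% of the same 3 sets. These matches describe letters in a window and not bound sites, and windows of 1 gene with several starts can overlap.

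Of the 13 outside peaks at snoRNA genes, most of them in host genes, 2 were called in KO and 10 in DKO. In the lncRNA class, which leaves out peaks near tRNA or other small RNA genes, it was 13 in KO and 58 in DKO of 177. Of all 225 outside peaks near a lncRNA gene it was 17 in KO and 85 in DKO. Of all WT peaks it was 8.08% in KO and 49.2% in DKO. These differences were not tested, and 13 peaks are few. The 1110038B12Rik peak (chr17:34951551-34952972) had fold enrichments of 3.68 in KO, 4.43 in DKO and 4.59 in WT. The Snhg3 peak (chr4:132352435-132353566) had 3.46 in KO, 5.58 in DKO and 4.39 in WT. At Snhg17 and Snhg5, DKO had 5.90 and 4.84 and WT 4.55 and 5.32, with none in KO. Snhg15 and Snhg16 had 5.21 and 3.82 in DKO and 3.19 and 3.87 in WT, and Snhg12 3.82 in DKO and 5.30 in WT. Snhg8 (4.86) and Snhg20 (4.63) were called in WT alone. Dancr, which hosts Snora26 and keeps progenitor cells undifferentiated in human epidermis, had 3.59 in DKO and 3.81 in WT.

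Of the 82 noncoding genes listed for these cells, 80 were in the annotation, 45 had a WT peak of any position and 24 an outside peak. The outside peak was called in KO at 2 of the 24, Snhg3 and Platr10, and in DKO at 10. Of all WT peaks it was 8.08% in KO and 49.2% in DKO, so these counts were not read as a trait of the list. Chaserr (chr7:73556566-73557974), not on that list, had 5.61 in KO, 5.15 in DKO and 5.75 in WT, almost level. The Platr10 peak, among the 10 widest at 1962 bases, was level too, with 4.07 in KO, 4.15 in DKO and 4.15 in WT. Oip5os1, a conserved lncRNA also called Cyrano, had 5.02 in DKO and 6.16 in WT. Lncenc1, a lncRNA of naive stem cells, had 4.26 in DKO and 3.39 in WT.

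Several well-known noncoding genes had an outside peak in WT alone. Malat1, a nuclear lncRNA, had a wide peak of 2273 bases at a fold enrichment of 3.69. Meg3, an imprinted lncRNA expressed from the maternal allele, had 2 peaks with up to 5.21. Mir22hg, the host of miR-22, had 2 with up to 6.05, and Dleu2, the host of miR-15a and miR-16-1, had 2 with up to 5.32. Lncpint had 4.76, Pvt1 4.01, Firre 3.97, Otx2os1 up to 3.75 and Miat 3.48. Among RNA polymerase III genes and other small RNA genes, Rn7sk, which holds the elongation factor P-TEFb inactive, had 3.67 and Terc, the telomerase RNA, had 3.57. Rny3, a Y RNA gene, was called in 2 genotypes, with 4.36 in DKO and 5.24 in WT. Absence from the KO list was not read as absence of the mark: KO had the fewest fragments.

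At microRNA genes, 1 of the 10 outside peaks was called in KO and 7 in DKO, against 8.08% in KO and 49.2% in DKO of all WT peaks. The highest, beside Mir713 and Platr25 (chr13:62760271-62760710), had 3.998 in DKO and 8.78 in WT. The Mir210 peak (chr7:141221153-141221678), at a microRNA induced by low oxygen, had 5.27 in DKO and 6.14 in WT. The Mir760 peak, which is also beside the arginine tRNA gene n-TRtct2, had 3.07 in DKO and 4.56 in WT. The Mirlet7i peak, at a member of the let-7 family that promotes differentiation, had 4.12 in DKO and 3.84 in WT. The peak at Mir212 and Mir132, neuronal microRNAs with the shared seed AACAGUC, had 3.43 in WT and none in KO or DKO, and Mir124a-3, another neuronal one, had 3.39 in WT alone. The single KO call was at Mir101c (4.78 in KO, 6.15 in DKO, 5.37 in WT), in a stretch at the start of chromosome 9 where DKO WDR5 or P53 peaks were also called.

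At pseudogenes and other loci, 10 of 39 outside peaks were called in KO (25.6%) and 16 in DKO (41.0%). Of all WT peaks it was 8.08% in KO and 49.2% in DKO. Of the 39, 7 overlapped a DKO WDR5 or P53 peak. Without them, 5 of 32 were called in KO (15.6%, 6.86 to 31.8) and 11 in DKO (34.4%, 20.4 to 51.7). The Pisd-ps2 peak, among those 7, had 6.90 in KO, 6.31 in DKO and 6.16 in WT. The peak at 2610005L07Rik (chr8:20410220-20410622) had 7.25 in KO, 7.005 in DKO and 5.76 in WT. Gm20590 (6.35), 4632415L05Rik (5.84) and Gm15488 (5.31) were called in WT alone. In the lncRNA class, Mir670hg had 8.22 in WT and no peak in either mutant.

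Peaks with no annotated gene within 1000 bases made up most of the KO calls. Of these 317, 82 were called in KO (25.9%, 21.4 to 31.0) and 125 in DKO (39.4%, 34.2 to 44.9). Leaving out the 48 at DKO WDR5 or P53 peaks, 46 of 269 were called in KO (17.1%, 13.1 to 22.1) and 85 in DKO (31.6%, 26.3 to 37.4). The KO share was also higher at greater distance. Among outside peaks 1000 to 5000 bases from a protein-coding gene, 7.26% were called in KO and 33.9% in DKO. Between 5000 and 20000 bases it was 10.5% in KO and 41.8% in DKO, and between 20000 and 100000 bases 15.98% in KO and 41.1% in DKO. Over 100000 bases, 50 of 94 were called in KO (53.2%, 43.2 to 63.0) and 47 in DKO (40.1 to 59.9). Without peaks at DKO WDR5 or P53 peaks, the KO share was 5.08%, 7.59%, 8.59% and 41.4% over the 4 steps from near to far.

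**Figure D4:**
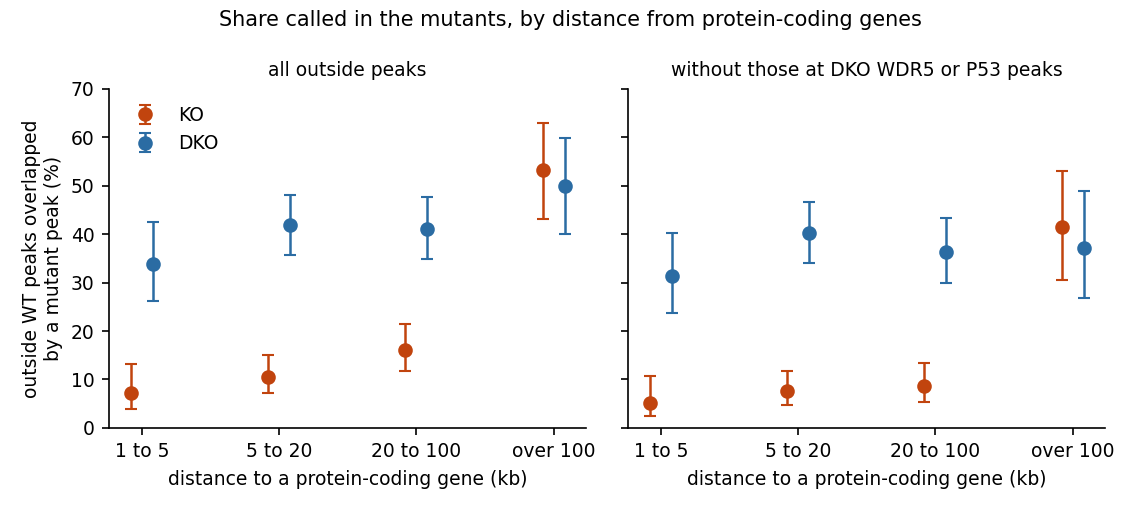
Percent of outside WT peaks that a KO or DKO peak overlapped (vertical axis), by distance in kb to the nearest protein-coding gene, with 95% Wilson intervals (1 library per genotype). The left panel holds all 676 outside peaks and the right panel the 610 away from DKO WDR5 or P53 peaks; in both, the KO point of the farthest step stands apart, at 53.2% and 41.4%.

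Peaks without an annotated gene mostly had the higher value in KO where both genotypes called them. For the 46 peaks with no annotated gene and no DKO WDR5 or P53 peak, the fold enrichment was higher in KO than in WT at 36 (78.3%), with medians of 5.80 in KO and 4.52 in WT. For all WT peaks called in KO it was higher in 230 of 795 (28.9%), with medians of 4.69 in KO and 5.44 in WT. In DKO, 27 of 85 such peaks without a gene (31.8%) were higher than in WT. For all WT peaks called in DKO it was 1012 of 4837, a smaller share. The share without a gene was thus above that of the whole list in DKO too, by less than in KO. The fragment pileup, which is not scaled to depth, had a median of 24.0 in KO and 24.5 in WT over the 46. Chosen by distance instead, 29 peaks over 100000 bases from a protein-coding gene were called in KO and had no DKO WDR5 or P53 peak. Fold enrichment was higher in KO than in WT at 23 of these 29, while the median pileup was 24 in both. The highest of the 46 in KO was chr4:80231401-80231827, 602296 bases from Tyrp1, with 12.1 in KO, 4.55 in DKO and 7.15 in WT. Next were chrX:22069510-22069954 with 11.4 in KO, 3.85 in DKO and 5.96 in WT, and chr1:142358340-142358795 with 10.1 in KO, 4.90 in DKO and 7.94 in WT. The KO list as a whole also leaned outward: 197 of its 918 peaks (21.5%) met the same position rule, against 572 of 6418 (8.91%) in DKO and 676 of 9836 (6.87%) in WT. Outside peaks away from DKO WDR5 and P53 peaks made up 15.5% of the KO list, 7.96% of the DKO list and 6.20% of the WT list. Of the 197 in KO, 76 overlapped no WT peak, 67 of them with no annotated gene within 1000 bases and 0 at tRNA genes. Of the 572 in DKO, 290 overlapped no WT peak, 188 with no annotated gene and 9 at tRNA genes. Library depth, list length and background differ between the genotypes along with these shares, and their part was not tested.

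**Figure D5:**
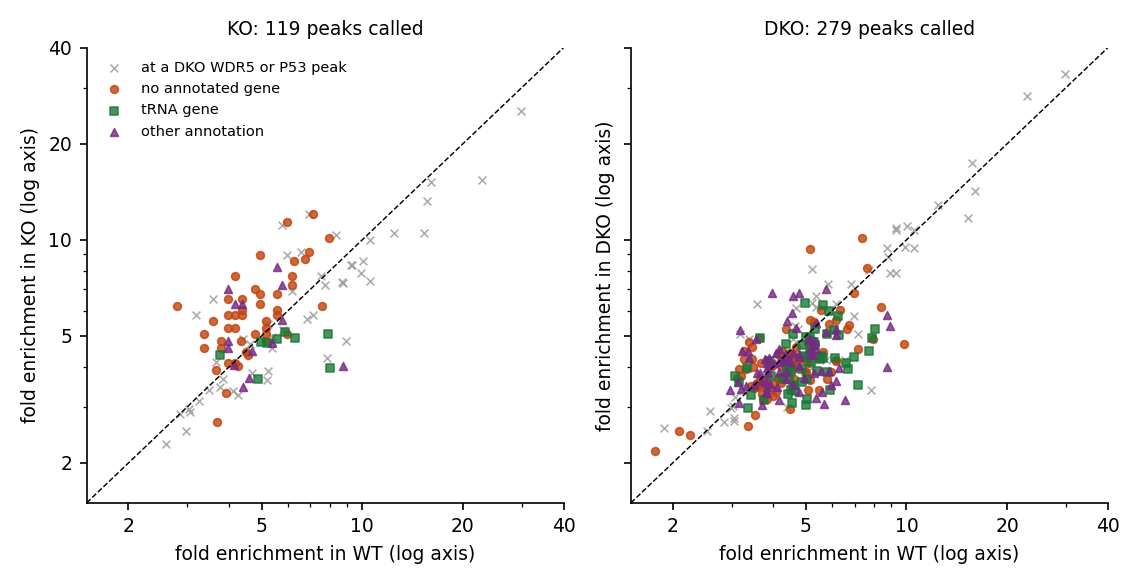
Fold enrichment of outside peaks in KO (left, 119 peaks) and DKO (right, 279 peaks) against WT, on log axes, with the line of equal values dashed; symbols mark peaks at a DKO WDR5 or P53 peak, with no annotated gene, at tRNA genes and at other annotations. In KO, 36 of the 46 peaks with the symbol for no annotated gene lie above the line, and 1 of the 9 with the tRNA symbol does. The other tRNA peak called in KO is at a DKO WDR5 or P53 peak and has that symbol.

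Height in WT moved with being called in the mutants. In the lowest of 5 equal bins of WT fold enrichment (1.58 to 3.66), 6.28% of the 207 outside peaks were called in KO and 25.6% in DKO, against 1.99% in KO and 25.2% in DKO for the 1759 other WT peaks. In the highest bin (5.48 to 33.6), 44.1% of 111 outside peaks were called in KO and 70.3% in DKO, against 18.04% in KO and 79.5% in DKO for 1857 others. Without those at DKO WDR5 or P53 peaks, the outside shares of the highest bin were 26.5% in KO and 63.9% in DKO. At tRNA genes the peaks called in DKO over the 5 bins, from low to high, were 6 of 28, 3 of 15, 13 of 23, 19 of 21 and 20 of 27, against 25.2%, 33.6%, 47.6%, 61.0% and 79.5% of other WT peaks. The tRNA share was below that of the others in 3 bins and above it in 2. Limited to the 918 highest peaks each, the lists left 58 outside peaks in WT. Of these, 33 overlapped a KO peak (56.9%) and 34 a DKO peak (58.6%). Those at DKO WDR5 or P53 peaks were kept in this count. The share over all WT peaks at that list length was not computed, so these values have nothing to be set against.

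Most WDR5 and P53 calls at outside peaks fell at places with DKO peaks. Regions called in both lists overlapped 41 outside peaks for DKO WDR5 (6.07%, against 1.23% of all WT peaks) and 42 for WT WDR5 (6.21%, against 2.23%). For P53 it was 44 in DKO (6.51%, against 0.712%) and 46 in WT (6.80%, against 0.732%). The overlap was thus about as large in cells labelled as knockouts. Of the 42 with a WT WDR5 region, 33 overlapped a DKO WDR5 peak, and of the 46 with a WT P53 region, 39 overlapped a DKO P53 peak. Of the 610 outside peaks free of any DKO peak, 6 had a WT WDR5 region (0.984%, 0.452 to 2.13), against 1.22% of the 9642 WT peaks chosen the same way. As many had a WT P53 region (0.984%, 0.452 to 2.13), against 0.104%, so 6 of the 10 such P53 overlaps in the whole WT list were at outside peaks. These are small counts, and the difference was not tested.

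The 6 with WDR5 were chosen by that count after their values were seen. The tRNA peak at n-TVaac2 had WDR5 fold enrichments of 4.26 and 4.47 in WT lists 1 and 2. The peak chr2:153642781-153643133, 6278 bases from Dnmt3b, a DNA methyltransferase gene of early embryos, had 5.44 and 4.46. The peak chr6:122811201-122811892, 8292 bases from Foxj2, had the highest, with 5.68 and 5.79. Those at 5430416N02Rik, Gm36445 and Gm9597 had 4.03 to 5.02 over both lists. Of these 6, 1 was called in the KO H3K4me3 list and 2 in DKO. Of the 610 outside peaks free of any DKO peak it was 11.3% in KO and 36.9% in DKO.

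Of the 6 with P53, also chosen after their values were seen, 4 were over 100000 bases from a protein-coding gene. The peak chr15:63032505-63032776, 743195 bases from Gsdmc, had the highest P53 fold enrichment, with 10.3 and 9.88 in the WT lists, and H3K4me3 values of 5.31 in KO and 4.17 in WT. The peak chr11:6386450-6386880, 1919 bases from Zmiz2, had P53 values of 4.52 in both lists and H3K4me3 values of 8.59 in KO and 6.27 in WT. The peak at the lncRNA gene Gm13067 had P53 values of 5.06 and 4.85 and was called for H3K4me3 in WT alone. Of the 6, 5 were called in the KO H3K4me3 list and 1 in DKO. Of the 610 outside peaks free of any DKO peak it was 11.3% in KO and 36.9% in DKO. Of the 70 among them over 100000 bases away, it was 41.4% in KO and 37.1% in DKO. With 6 peaks, a link to P53 was not tested. The lists share most summits, so none of these 6 is a replicated site.

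The highest outside peaks were largely places also called with the WDR5 or P53 antibody in DKO. Of the 20 highest in WT, 16 overlapped a DKO WDR5 or P53 peak, 16 were called in KO and 20 in DKO. The first, at the lncRNA gene Gm33838 (chr9:35305227-35305582), had H3K4me3 values of 25.4 in KO, 33.1 in DKO and 29.9 in WT, and between 26.3 and 28.0 in all WDR5 and P53 lists. The second, at the pseudogenes Gm10222 and Gm10925 (chr1:24612745-24613417), had 15.5 in KO, 28.3 in DKO and 22.9 in WT. The peak chr2:98666291-98667326, 1034619 bases from Lrrc4c, had a pileup of 18301 fragments in KO, 21141 in DKO and 20622 in WT. Of the 66 such peaks, 11 lay in the first stretch of chromosome 9 near 3 Mb. A limited stretch of chromosome 4 held 9 and a limited stretch of chromosome 8 held 6. These were counted within the stretches and not over the whole chromosomes. Chromosome Y held 6, and 25 of the 66 were called in all 11 lists. The widest, chr9:3000031-3002994, had 7.90 in KO, 9.48 in DKO and 9.92 in WT, and the next, at Rn18s-rs5, a ribosomal RNA related locus (chr17:39843115-39845909), had 2.53 in KO, 2.97 in DKO and 2.98 in WT. The 4 of the highest 20 without a DKO WDR5 or P53 peak were chr12:20196600-20197504 (4.73 in DKO, 9.87 in WT), the peak at Gm40988 and Vmn2r-ps106 (5.37 in DKO, 8.93 in WT), the peak at Mir713 and the peak at Gm35239 (4.04 in KO, 5.82 in DKO, 8.73 in WT).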

How the data were processed

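H3K4me3, WDR5 and P53 were profiled by CUT&RUN and deposited as 11 peak lists. Per the file headers, the authors called peaks with MACS 2.1.2 or 2.1.0.20150731 with no control, a q cutoff of 0.01, background taken over 10 kb and up to 2 fragments per position. The submitters' processing notes name Bowtie2, SAMtools 1.5, bedtools, HOMER 4.10 and mm10. Per the file headers, pileup is a coverage signal in fragments not scaled to depth, the -log10 p-value and -log10 q-value columns score each peak, and fold enrichment is the deposited ratio to local background.

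Overlap meant at least 1 shared base, with the highest fold enrichment taken from the overlapping peaks. A WDR5 or P53 region was a merged interval with peaks of both lists. Gene types, starts and sequences came from RefSeq GRCm38.p6, and its table gives no exons. Wilson intervals and medians were computed with Python 3.11.15, pandas and scipy, and the overlap code was tested on simulated intervals. Mitochondrial peaks were left out (3 or 4 per list). No test was made between genotypes, since H3K4me3 had 1 library each and lists 1 and 2 of WDR5 and P53 were not shown to be separate libraries.

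The outside peaks and gene lists were chosen with earlier results of these data known. Named peaks were the 20 highest in WT, the 10 widest, the 10 highest in KO among those called in all 3 genotypes, the 10 highest with a WT WDR5 or P53 region, the 10 highest at each of a lncRNA gene, a microRNA gene, another small RNA gene, a pseudogene and no gene within 10000 bases, and members of the noncoding list. Others named were chosen after their values were seen. Alternatives changed the distance, list threshold, overlap, window and list used.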

Additional observations from a re-analysis of the deposited data

How the results depend on the processing

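The main shares were 17.6% of 676 outside peaks called in KO, 41.3% in DKO, 6.21% with a WT WDR5 region, 6.80% with a WT P53 region and 53.1% at a noncoding gene. With peaks outside genes at any distance there were 1332, and the shares were 9.38%, 37.5%, 4.58%, 3.45% and 42.2%. With the top 50% of each H3K4me3 list there were 257, and the shares were 24.1%, 47.9%, 10.1%, 12.5% and 57.6%. With -log10 q of at least 5, DKO was 45.1% and noncoding genes 57.3%. With peaks within 500 bases counted, DKO was 45.4%. With lists of equal length, KO was 56.9% and DKO 58.6% of 58 outside peaks, with no share over all WT peaks computed. With outside peaks away from every annotated gene, KO was 25.9%. With those at DKO WDR5 or P53 peaks left out, KO was 11.3% and DKO 36.9%. Overlap with the gene span alone gave 39.1% at noncoding genes, and a window of 5000 bases gave 60.1%. Leaving out list 1 or 2 gave 6.36% to 6.51% for DKO WDR5, 6.51% to 7.99% for WT WDR5, 6.36% to 9.02% for DKO P53 and 6.95% to 7.54% for WT P53. As alternatives added after seeing the data, outside peaks within 100000 bases of a protein-coding gene had a KO share of 11.9%, and a 250 base window left 34.9% of tRNA genes marked in WT, against 48.0%. Leaving out peaks at DKO WDR5 or P53 peaks gave 46.8% of tRNA genes. The cause of these shifts was not tested.

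No paired analysis was possible because the results are shares of single lists with no test. The KO library was the shallowest, and whether a peak missing from its list reflects depth or loss of the mark was not tested.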
